A study of Caenorhabditis elegans with 2 samples.

Results

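The SL2 RNA genes sls-2.1, sls-2.2 and sls-2.4 encode spliced leader RNAs of the nematode Caenorhabditis elegans, and they were chosen by the summits and signal of peaks for the protein MADF-9. A gene's window was its annotated body plus 250 bp on each side on the ce11 assembly. The 3 genes are 3 of 18 annotated SL2 genes and of 46890 annotated genes of all kinds on the nuclear chromosomes. Because summits and signal selected them, both are given below as descriptions and carry no test.

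Chromatin immunoprecipitation followed by sequencing (ChIP-seq) recovers DNA fragments bound by a protein and counts where they fall in the genome. The single group held 2 biological replicates of whole L4 larvae, collected 48 hours after growth started from starved L1 larvae. All worms came from 1 strain in which CRISPR placed TY1, EGFP and 3xFLAG tags at the madf-9 gene itself. The labels differ on the antibody, which a description gives as directed against GFP and another field lists as madf-9. Every cell type of the larva was therefore mixed. No wild-type worms without the tag were analysed here, nor was the control library, and nothing in the labels says how the replicate cultures were kept apart.

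In nematodes a short leader is spliced onto the 5′ end of many messenger RNAs from a separate small RNA, in a reaction called trans-splicing. SL1 RNA serves mostly the first gene of a transcription unit, while SL2 RNA serves the downstream genes of operons, which are transcribed as 1 long precursor and cut into single messages. An SL RNA carries the leader at its 5′ end, then a splice donor, and further on a site where Sm proteins assemble, as in the U-type spliceosomal snRNAs. Small nuclear RNA genes of animals are generally transcribed from a promoter element upstream of the RNA start that the SNAPc complex recognises. MADF-9 is named for its MADF domain, which resembles the DNA-binding domain of Myb proteins.

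The RNA genes of sls-2.1 and sls-2.2 are shown first, from the RefSeq copy of the WBcel235 assembly, which ce11 names, because they had the highest signals. Capitals mark the 22 bases of the leader, which is spliced onto the message.
sls-2.1 gene, chrII:5844865-5844974, plus strand: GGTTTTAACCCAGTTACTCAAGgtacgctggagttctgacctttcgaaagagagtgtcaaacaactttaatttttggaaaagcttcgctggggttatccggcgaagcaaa
sls-2.2 gene, chrII:5543598-5543707, plus strand: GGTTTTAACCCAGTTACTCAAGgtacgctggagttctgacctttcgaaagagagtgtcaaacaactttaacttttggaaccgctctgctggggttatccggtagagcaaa
Both genes carry the same leader, and 4 of the 18 genes have it, sls-2.1, sls-2.2, sls-2.3 and sls-2.4. The other 14 genes carry 10 different leaders, so the family has 11 in all. The leader of sls-2.8, a gene with a weaker summit, and that of sls-2.12, a gene without one, are shown to let the differences be seen, with the leader in capitals.
sls-2.8 leader, the 5′ end of the gene at chrIII:12250465-12250575, plus strand: GGTTTTAACCCAGTTTAACCAAG
sls-2.12 leader, the 5′ end of the gene at chrIV:5261913-5262022, plus strand: GGTTTTAACCCAGTTAATTGAG

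The 90 bases before the RNA start are shown next, for 3 genes of the shared-leader group and for 3 genes outside it. In the first 3, capitals mark a block of 15 bases that the genes with the shared leader have in common.
sls-2.1 upstream, chrII:5844775-5844864, plus strand: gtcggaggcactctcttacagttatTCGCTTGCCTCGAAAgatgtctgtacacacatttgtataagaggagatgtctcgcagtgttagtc
sls-2.2 upstream, chrII:5543508-5543597, plus strand: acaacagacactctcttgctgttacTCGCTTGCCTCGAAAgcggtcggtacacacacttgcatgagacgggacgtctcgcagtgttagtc
sls-2.3 upstream, chrII:5544274-5544363, minus strand: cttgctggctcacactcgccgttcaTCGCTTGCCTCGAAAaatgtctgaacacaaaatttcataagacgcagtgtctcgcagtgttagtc
In the next 2, capitals mark a word of 9 bases that was the most frequent upstream of the other SL2 genes, and the last holds neither.
sls-2.16 upstream, chrIII:7141301-7141390, plus strand: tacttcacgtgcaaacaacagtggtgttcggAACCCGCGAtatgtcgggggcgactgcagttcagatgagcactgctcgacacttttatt
sls-2.14 upstream, chrIII:11090524-11090613, minus strand: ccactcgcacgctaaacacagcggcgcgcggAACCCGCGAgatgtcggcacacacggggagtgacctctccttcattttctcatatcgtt
sls-2.8 upstream, chrIII:12250375-12250464, plus strand: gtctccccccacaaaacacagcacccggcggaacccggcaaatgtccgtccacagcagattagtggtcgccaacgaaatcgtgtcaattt
Both the block and the word were derived by comparing these upstream sequences, so their presence in the group each was derived from is by construction. Each is printed in the direction of the RNA, and sls-2.3 and sls-2.14 lie on the minus strand.

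The signal of a peak is the authors' own measure of its strength, with no stated unit, and the irreproducible discovery rate (IDR) of a region estimates how likely it is not to recur between 2 inputs. The set of peaks called between the replicates held 1637 peaks with an IDR of at most 0.01 and a median signal of 89.3, out of 86867 ranked regions. Replicate 1 alone gave 1002 peaks with a median of 62.8, and replicate 2 alone gave 806 with a median of 56.8. Ranks and levels are read within a list. Values of the 2 replicates come from separate lists whose scales may differ, so their means and ratios describe the spread between lists and are read beside the same ratio over all peaks. The files hold no read counts, so the depth of each library is unknown.

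sls-2.1 (WBGene00004833, plus strand of chromosome II, 5844865 to 5844974) had the highest signal of the SL2 genes. Its peak in the set between replicates ran from 5844724 to 5844894 with a signal of 321, rank 28 of 1637. Replicate 1 gave 163 and replicate 2 gave 152 in their own lists, a mean of 157 ± 7.95 (SD, n = 2). Both replicates placed it above their list's median, at ranks 52 and 41 among all ranked regions.

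sls-2.2 (WBGene00004834, plus strand of chromosome II, 5543598 to 5543707) came second with a signal of 234, rank 85 of 1637, in a peak from 5543493 to 5543653. Replicate 1 gave 144 and replicate 2 gave 90.1, a mean of 117 ± 38.0 (SD, n = 2), and both regions passed in their own sets. A further ranked region with its summit 198 bp past the RNA start had a signal of 21.3 and an IDR of 0.711, and did not pass. Replicate 2 also ranked a region with its summit at 271 bp, with a signal of 7.25 and an IDR of 0.918, which did not pass. The window of sls-2.2 thus held a single passing region in each set.

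sls-2.4 (WBGene00004836, plus strand of chromosome I, 4172206 to 4172315) had a signal of 205, rank 115 of 1637, in a narrow peak of 79 bp from 4172146 to 4172224. Replicate 2 gave 118 at an IDR of 1e-05 in its own list. Replicate 1 gave 84.4, but at an IDR of 0.809, so its region is not in that replicate's set. The mean was 101 ± 23.7 (SD, n = 2), over regions whose summits lay 157 bp apart. sls-2.4 was the member with a passing region in only 1 replicate.

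A second summit lay in the window of sls-2.4, 211 bp past the RNA start, with a signal of 23.6. Its IDR of 1.86e-05 came from the same pair of input regions as the strong summit, 4172210 to 4172453 in replicate 1 and 4172118 to 4172218 in replicate 2. In the other ranked list of the series the same region had an IDR of 0.856. The 2 summits of sls-2.4 are therefore not separate pairs of replicate regions, and the 3 members account for 4 of the 1637 summits.

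Across the family, 7 of 18 SL2 genes (38.9%) had a summit in the window in the set between replicates, where the members' strongest regions were the 3 highest. In replicate 1 the order differed, with sls-2.9 at 92.7 above sls-2.4 at 84.4. The background share of all annotated genes with a summit in such a window was 4.3%, or 2015 of 46890 genes, and that of other snRNA genes was 10.1%, or 10 of 99. These windows include each gene's own body, so their lengths differ, and 1 summit can count for several genes. In the set of replicate 1 alone, 7 of 18 SL2 genes (38.9%) had a summit against 2.88% of all genes. These 7 were not the same genes, since they included sls-2.14 and lacked the member sls-2.4. In the set of replicate 2 alone, 5 of 18 (27.8%) had a summit against 2.48%. No test was made of the SL2 share, since summits chose the members and are part of the count. Genes with a summit in both replicates' own sets were 4 in number, sls-2.1, sls-2.2, sls-2.8 and sls-2.9. In the set between replicates the summit counted for sls-2.9 lay 24 bp from a tRNA gene and 108 bp from sls-2.9.

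The other 4 genes with a summit had lower signals. sls-2.9 had 144, with 92.7 in replicate 1 and 58.0 in replicate 2. sls-2.3, the fourth gene with the shared leader, had 104, with 81.7 in replicate 1 and 33.2 in replicate 2, where its region did not pass. sls-2.8 had 92.1, with 43.9 and 44.0. sls-2.16 had 64.1, with 37.5 and a non-passing 30.4. Taking each gene's strongest region in the set between replicates, all 4 were below the 3 members, and the lowest was below the set's median.

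The remaining 11 genes had no summit in the set. For the 9 of them with a ranked region the strongest signal ran from 11.2 to 66.0, with a median of 34.5. In replicate 1, 7 had a region, from 3.61 to 46.9, and in replicate 2, 8 had one, from 17.1 to 26.9. sls-2.14 had the highest signal outside the set, 66.0 at an IDR of 0.0176, while sls-2.16 had the lowest inside it among the genes' strongest regions, 64.1 at an IDR of 0.00489. sls-2.14 also passed in replicate 1 alone, with 46.9. sls-2.6 had a region only in replicate 2, with 26.9, and sls-2.11 had none in any list. Those without a summit were sls-2.5, sls-2.6, sls-2.7, sls-2.10, sls-2.11, sls-2.12, sls-2.13, sls-2.14, sls-2.15, sls-2.17 and sls-2.18.

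**Figure D1:**
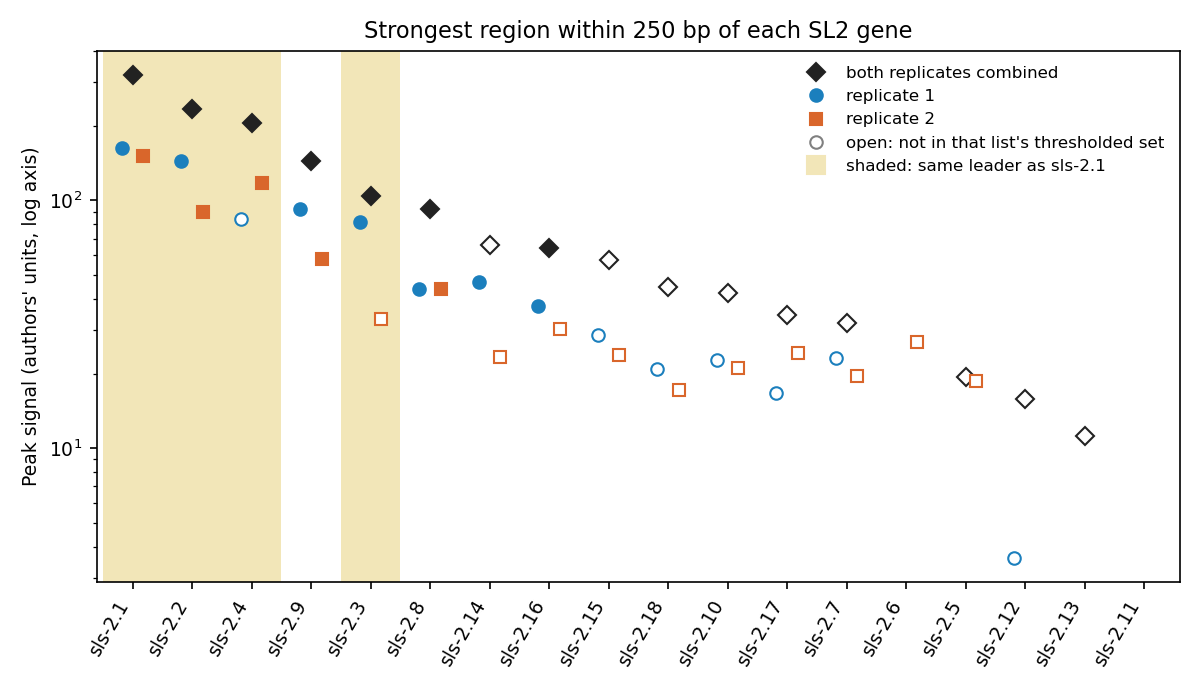
Deposited signal of the strongest region in the window of each SL2 gene, in the list between replicates and in each replicate, with open symbols for regions outside that list's thresholded set. Yellow shading marks the 4 genes with the leader of sls-2.1, which include all 3 members; sls-2.11 had no region.

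The genes lie on chromosomes I to IV. The number with a summit was 2 of 4 on chromosome I and 3 of 3 on chromosome II. It was 2 of 6 on chromosome III and 0 of 5 on chromosome IV. These counts include sls-2.1 and sls-2.2 on chromosome II and sls-2.4 on chromosome I, which were chosen for their summits. The share of all genes on each chromosome was not counted, so no pattern by chromosome is read. sls-2.2 and sls-2.3 lie on opposite strands and point toward each other, with their facing ends 457 bp apart. Their windows do not share a summit. sls-2.1 is the only SL2 gene of chromosome II apart from these.

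The strongest summit of each member lay near the RNA start. In the set between replicates these were 46 bp upstream of the first base at sls-2.1, 2 bp upstream at sls-2.2 and 8 bp downstream at sls-2.4, whose weak second summit lay 211 bp downstream. Replicate 1 placed them at −54, −2 and 126 bp, and replicate 2 at −43, −21 and −31 bp. The replicates thus differed by 11 bp at sls-2.1 and 19 bp at sls-2.2, but by 157 bp at sls-2.4, where the summit of replicate 1 lay beyond the end of the RNA. The other 4 genes had summits at −108 (sls-2.9), −48 (sls-2.3), −5 (sls-2.8) and 6 bp (sls-2.16). For the 9 genes without a summit that had a ranked region between replicates, its strongest summit lay 75 to 268 bp downstream of the RNA start. In replicate 1 the range was 40 to 259 bp over 7 genes, and in replicate 2 it was −242 to 296 bp over 8. The window also spans the RNA, so it holds more bases downstream of the start than upstream, and no difference in position is read. Chromatin was sonicated, so a summit marks a fragment pile and not a base.

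**Figure D2:**
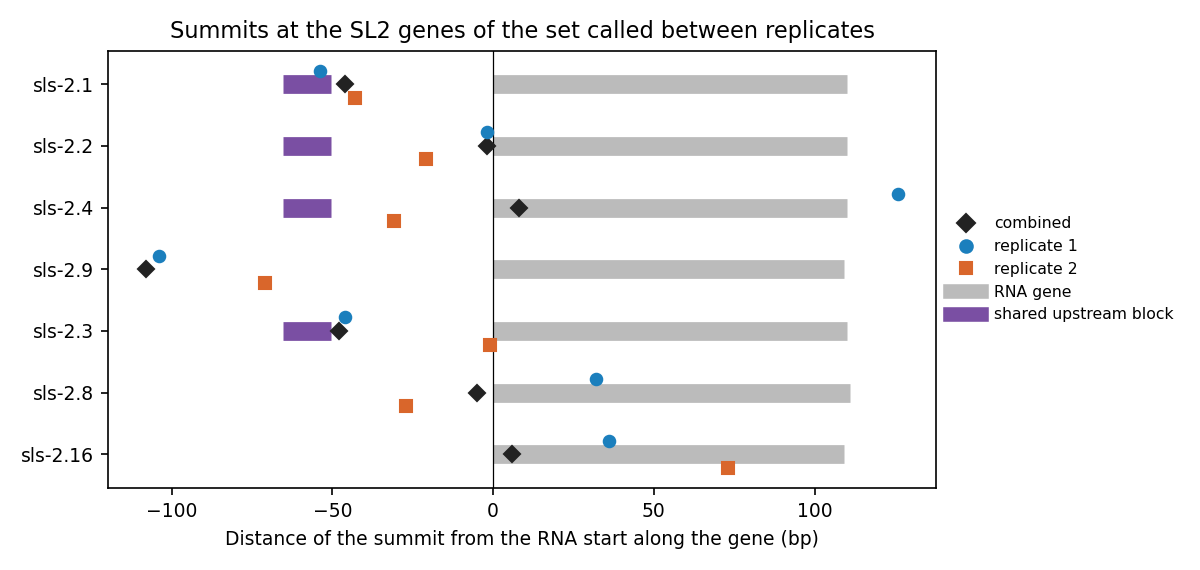
Distance of each summit from the RNA start, in bp along the direction of the RNA, for the 7 SL2 genes with a summit in the set between replicates, with the block of 15 bases drawn where a gene has it. The replicates lie close together at sls-2.1 and sls-2.2 and 157 bp apart at sls-2.4.

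The replicates were also compared by the ratio of their signals. Over the 1603 of 1637 peaks with a region in both, replicate 1 was a median of 1.18 times replicate 2, with 0.739 and 1.95 at the 5th and 95th percentiles. The ratio was 1.07 at sls-2.1, 1.60 at sls-2.2 and 0.716 at sls-2.4, where 3.93% of peaks had a lower one. At sls-2.4 the replicate 1 region overlapped only the end of the combined peak. Its summit lay 157 bp from that of replicate 2, so this ratio does not compare the same position. At sls-2.3 it was 2.46, above 99.0% of peaks. The values of sls-2.4 and sls-2.3 thus lie outside the range that holds the middle 90% of peaks, in opposite directions, and those of sls-2.1 and sls-2.2 lie inside it.

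**Figure D3:**
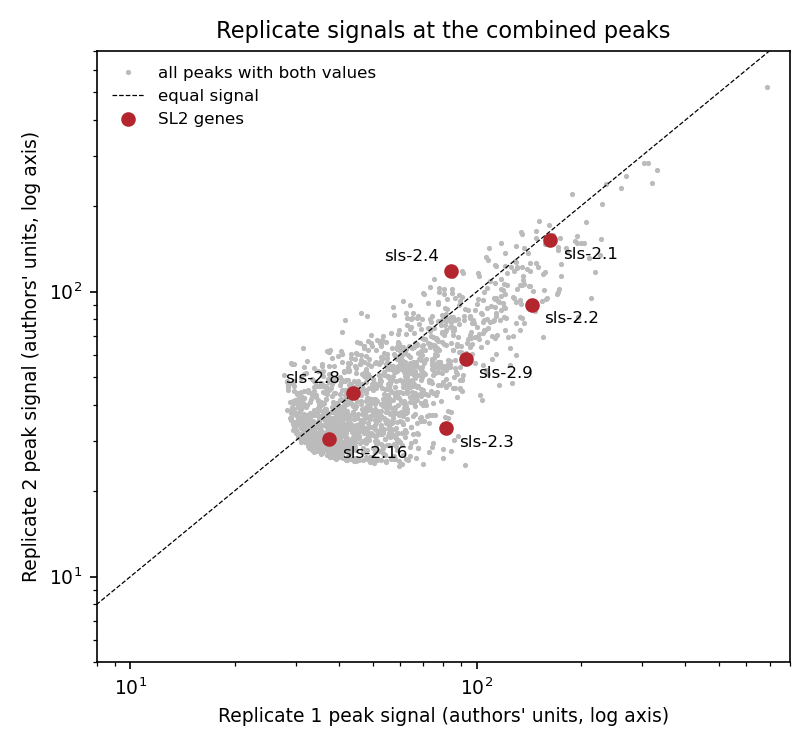
Signal in replicate 2 against signal in replicate 1, on log axes, for peaks of the set between replicates with a region in both, with the SL2 genes marked. Relative to the other peaks, sls-2.4 lies toward replicate 2 (ratio 0.716) and sls-2.3 toward replicate 1 (ratio 2.46). At sls-2.4 the summits of the replicates' regions lie 157 bp apart.

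All 4 genes with the leader of sls-2.1 had a summit, against 3 of the other 14, which were sls-2.8, sls-2.9 and sls-2.16. The summit of sls-2.9 lay nearer to a tRNA gene than to sls-2.9. The sequence was not used to choose the members, but 3 of those 4 genes are the members, so these counts are not independent of the choice. The 4 RNA genes are alike, with 90.9% to 97.3% identity over the 6 pairs (median 94.1%). Pairs with 1 gene of the group had a median of 74.8% over 56 pairs, and pairs with none had 77.5% over 91. sls-2.1 and sls-2.2 had 92.7% identity, sls-2.1 and sls-2.4 had 90.9%, and sls-2.2 and sls-2.4 had 96.4%.

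Identity was lower upstream. Over 100 bases before the RNA, ungapped, pairs of the shared-leader group had 57% to 79% identity, with a median of 64%, and pairs with 1 gene of the group had 34%. Pairs with none had 41%. Within the group, 91 of the first 100 positions of the gene were the same in all 4, as were 25 of the 50 positions just before the RNA and 22 of the 50 before those. Among the other 14 genes the counts were 8, 3 and 0. The group is smaller, which makes agreement of all its genes easier. Positions were compared without gaps, and the 4 genes are all 110 bp long, while the others run from 107 to 114 bp. Genes of unlike length can fall out of register. sls-2.14 and sls-2.15, for example, had 92.9% identity when aligned but only 73 matching bases ungapped. The low counts of the other genes are therefore not a measure of how alike they are.

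**Figure D4:**
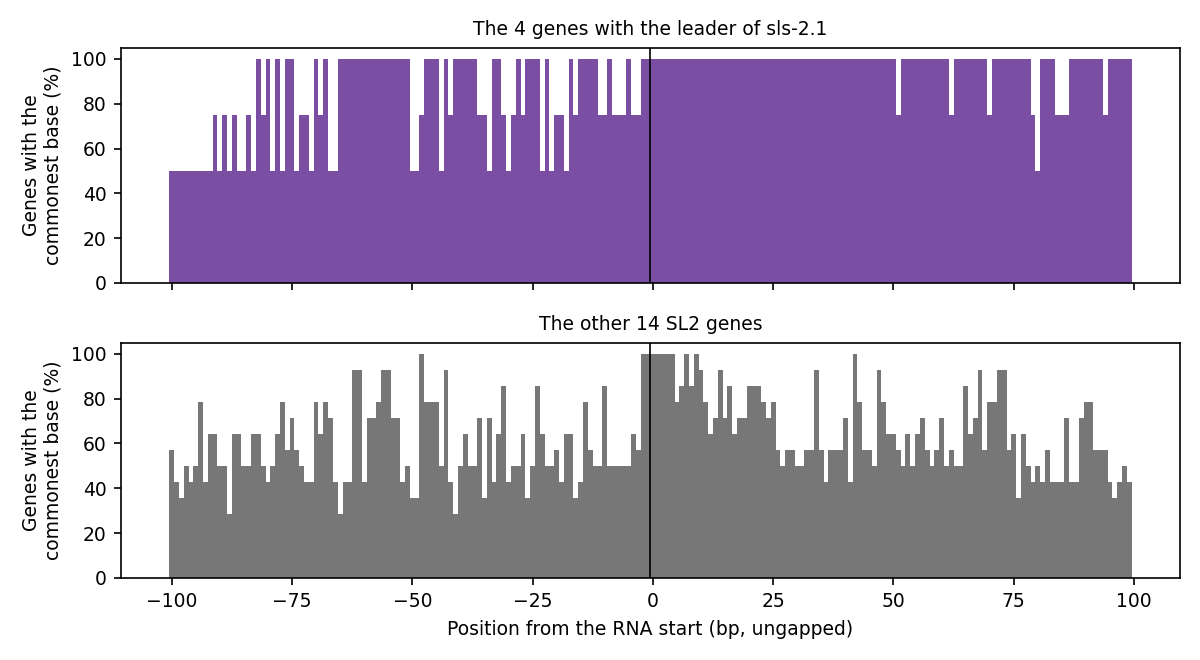
Share of genes with the commonest base at each position relative to the RNA start, for the 4 genes with the leader of sls-2.1 and for the other 14. The shared-leader group has 91 of 100 gene positions identical, and the others 8. Positions are ungapped, and the other genes differ in length, which can put them out of register.

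The upstream block of 15 bases, searched on both strands, occurs 4 times on the nuclear chromosomes, each time 65 to 51 bases upstream of an SL2 RNA start, at sls-2.1, sls-2.2, sls-2.3 and sls-2.4. These are the genes it was derived from, and all 4 were already counted as having a summit, so its nearness to summits is no separate result. None of the 19973 protein-coding promoters of the same 250 bp length holds it. The word AACCCGCGA, searched on both strands, lies upstream of 7 other SL2 genes and of no member. At 6 of these it sits 59 to 51 bases upstream, and 1 of the 6, sls-2.16, had a summit while 5 had none. It is found in 0.0451% of protein-coding promoters and 351 times in the genome.

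A pair of words taken from an earlier count at MADF-9 summits of these same peaks was also searched. AGACGCAG, on both strands, was upstream of sls-2.3, a gene with a summit, and of sls-2.6, a gene without one, and is in 3.31% of protein-coding promoters. CTGAGCTA, on both strands, was upstream of sls-2.9 alone and is in 0.285% of promoters. Neither lay within 250 bases upstream of a member. The word AATTTTTGG, the Sm-type word of the RNA itself, was in 13 of 18 genes and in 2 of 3 members, not in sls-2.2. Those counts searched the RNA gene on its own strand. In the 250 bases upstream, on both strands, 0 SL2 genes and 2.29% of protein-coding promoters held it. A word that is not found says only that these letters are not in that stretch.

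GC content of the 250 bases upstream was 43.2% to 44% in the members, 40% to 47.2% in the other 4 genes with a summit and 33.6% to 44% in the 11 without, with a median of 36.8%. That of protein-coding promoters had a median of 33.2%. The ranges overlapped, and the highest value without a summit equalled that of the highest member. Over the 100 bases upstream the overlap was larger, with 48% to 53% in the members, 48% to 57% in the other 4 genes with a summit and 38% to 58% in the 11 without. The part of base composition in the signal was not tested.

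Copies of a gene can also share reads. Words of 30 bases that occur more than once in the genome made up 11.7% of the window of sls-2.1, 9.98% of that of sls-2.2 and 4.13% of that of sls-2.4. All of them touched the gene and not the flanks alone. For the 11 genes without a summit the share had a median of 14.7%. Neither the read length nor the treatment of reads with several matches is stated in the labels.

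The surroundings of the members held only weaker regions within 5000 bp. Around sls-2.1 there were 10 other ranked regions with signals up to 50.4, against 321. Around sls-2.2 there were 15, from 2.28 to 104, and the highest was that of sls-2.3. Around sls-2.4 there were 10, from 6.42 to 55.7. In each replicate's own list the strongest region in the window was also above every other region within that distance at all 3 genes.

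The nearest protein-coding starts to sls-2.1 were those of nep-25, of the neprilysin family of peptidases, 2625 bp to the left, and ZK1248.17, 567 bp to the right. For sls-2.2 they were C17C3.24 at 1813 bp and ins-13, an insulin-like peptide gene, at 1157 bp. For sls-2.4 they were egg-5, which acts in the egg-to-embryo transition, at 617 bp, and R12E2.11 at 1309 bp. Some gene bodies came nearer than their starts. The ends of nep-25 and ZK1248.17 lay 245 and 280 bp from sls-2.1. That of ins-13 lay 805 bp from sls-2.2, and that of R12E2.11 lay 123 bp from sls-2.4.

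A promoter was taken as 1000 bp upstream to 200 bp downstream of a protein-coding transcript start. The summit of sls-2.1 lay in that of H41C03.3, 958 bp upstream, and the summits of sls-2.4 in that of egg-5, 625 and 828 bp upstream. The summit of sls-2.2 lay in none. sls-2.2 overlaps the non-coding RNA gene C17C3.23 on the other strand, and sls-2.4 overlaps R12E2.18, also on the other strand. ChIP-seq has no strand, so signal over such pairs cannot be told apart. The summit of sls-2.9 lay 24 bp from a tRNA gene and 108 bp from sls-2.9 itself, whereas the nearest tRNA gene to any other SL2 summit was 32879 bp away or more.

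The SL1 class was read in the same lists. All 12 annotated SL1 genes, which lie together at 17118154 to 17132107 on chromosome V, had no summit in their windows in the set or the ranked list between replicates or in either replicate's ranked list. The nearest ranked summits were 330 to 2060 bp from them. Repeated words of 30 bases filled 80.1% to 100% of their windows (median 100%), against 0% to 45.1% for SL2 genes, so how many reads could be placed in the SL1 windows is unknown and no difference between the classes is drawn. The 10 other snRNA genes with a summit had signals of 65.9 to 324 (median 96.9), a range that holds those of the 3 members.

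Protein genes of the trans-splicing machinery were read from a list of 39, of which 38 matched the annotation and snpc-1.5 did not. In their promoters, 3 of 38 (7.89%) had a summit against 4.71% of all 19973 protein-coding genes. In the set of replicate 1 it was 2 (5.26%) against 3.19%, and in that of replicate 2 it was 0 against 2.46%. The signals had a median of 83.1, beside 89.3 for all peaks. With counts of 3, 2 and 0 genes, nothing is read from these differences.

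Of the Sm protein genes, which encode the ring around the RNA, 2 of 7 (28.6%) had a promoter summit, beside 4.71% of all protein-coding genes. With so few genes, nothing is read from this share. snr-1 had a signal of 124, rank 391, with its summit 420 bp upstream, and 74.1 and 58.1 in the replicates, passing only in replicate 1. snr-4 had 83.1, rank 934, 377 bp upstream, with 37.1 in replicate 2 and a passing region in replicate 1, and the same summit lay 18 bp upstream of the snRNA gene T11F9.15. uaf-2, which encodes the small subunit of the splicing factor U2AF, was the 1 of 4 splicing factor genes with a promoter summit. Its signal was 49.0, rank 1595, 521 bp upstream, with 38.6 and 27.6 in the replicates, and it passed in neither replicate's own set.

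No promoter summit was found for the 5 listed genes sna-1, sna-2, sna-3, sut-1 and sut-2, of which sna-1, sna-2 and sut-1 encode proteins that accompany spliced leader RNAs. There was likewise none for the 8 genes for cleavage and polyadenylation of messages, the 8 matched genes for SNAPc subunits and the TATA-binding protein, the 5 cap-binding genes ife-1 to ife-5 or tgs-1, which encodes the enzyme that hypermethylates the cap.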

How the data were processed

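MADF-9 ChIP-seq peaks of 2 biological replicates were analysed. The authors deposited a ranked list and a thresholded set on ce11 per replicate, per the labels. For the replicates together they deposited 2 of each. The set between replicates is the one named conservative, and the remaining pair is called the other ranked list and the other thresholded set. The deposited score is a scaled IDR, and a score of 830 or more, as in every set, means an IDR up to 0.01. The deposited signal is the authors' strength value per peak. The IDR of ranked regions came from the authors' −log10 IDR values, which are capped at 5, and q values were not used. The aligner and peak caller were not given in the sources used here.

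In the ranked list between replicates, 36672 intervals of one input matched replicate 1 regions and 0 matched replicate 2, and 40683 of the other matched replicate 2 and 0 replicate 1. Of 1752 ranked regions that pass, 115 are not in the set, 0 of them near an SL2 gene. A gene was counted where a summit fell in its body or 250 bp either side, with genes from Ensembl release 115 and sequence from RefSeq WBcel235. Per gene the strongest region in the window was taken. No test was made, because summits and signal chose the members and there is 1 group. Every annotated SL2 gene was named, with the nearest protein-coding starts of the members and the listed pathway genes with a summit. The members and lists were chosen with earlier results of these data known. Window counts and strand offsets were tested on simulated data. Scripts used Python 3.11.15, Biopython 1.88 and numpy 2.4.6, and figures matplotlib 3.10.9. Alternatives changed the window, the peak set, the IDR limit and the replicates used.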

Additional observations from a re-analysis of the deposited data

How the results depend on the processing

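The count of 7 SL2 genes with a summit fell to 2 when summits had to lie in the gene body itself, since most lie just upstream. It was 6 with 100 bp on each side, 7 with 500 bp, 9 with 1000 bp, 8 in the other thresholded set, 6 in the upper 50% of peaks by signal, 9 at an IDR of at most 0.05 and 7 by any overlap of the peak. Leaving out 1 replicate gave 5 to 7, and the 7 of replicate 1 included sls-2.14 and lacked sls-2.4. At 1000 bp the windows of sls-2.5 and sls-2.18 also reach the summit of sls-2.16, which is then counted for each gene. Apart from the replicate sets, the share of all genes was not counted at these settings. Those counts thus have no background beside them. The other set carries the same strongest region and signal for each of the 3 members, so it is no separate check of those signals. From a single replicate's list the signals were 152 to 163 at sls-2.1, 90.1 to 144 at sls-2.2 and 84.4 to 118 at sls-2.4, on that list's own scale. sls-2.4 had no passing region without replicate 2. Summits ranged from −54 to −43 bp at sls-2.1, −21 to −2 bp at sls-2.2 and −31 to 126 bp at sls-2.4. Promoter summits of listed pathway genes were 3, then 4 with a promoter of 2000 bp upstream to 500 bp downstream, and 0 to 2 from 1 replicate. Only 2 replicates of 1 group without read counts limit every value. No paired analysis was possible because there is 1 group.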

Other observations

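sls-2.19, listed as a pseudogene (chromosome IV, 5264907 to 5265021), was not among the 18 genes. The pseudogene had a ranked region between replicates with a signal of 37.4 and one in replicate 1 with 27.4. It was in no thresholded set and had no region in replicate 2. sls-2.14, without a summit in the set between replicates, was in the other thresholded set with a signal of 66.0 at an IDR of 0.00291.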
